A study of Mus musculus with 6 samples.

Results

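The genes described here encode the neuronal voltage-gated sodium channels and the sodium leak channel. They are the pore-forming alpha subunits Scn1a, Scn2a, Scn3a, Scn8a and Scn9a, the accessory beta subunits Scn2b, Scn3b and Scn4b, and Nalcn. They were taken by name, and all 9 were found among the 32371 genes of the deposited count table. They were read in 6 RNA-Seq libraries of adult C57BL/6J mice of both sexes, 3 from mice given AAV2-GFP and 3 from mice given AAV2-Ezh2-Y726D, a catalytically dead form of the histone methyltransferase Ezh2. In both groups the virus went into the vitreous, the optic nerve was crushed 2 weeks later (optic nerve crush, ONC), and retinal cells positive for CD90.2 and negative for a dead-cell dye were sorted 3 days after the ONC. All 6 libraries thus come from injected and injured eyes, and an uninjured group is not analysed here. Whether a library pools several mice, and whether the libraries of a group come from different mice, is not given in the sources used here, so that P values measure the spread between these libraries, which may be technical.

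A voltage-gated sodium channel opens when the membrane is depolarized and carries the inward current of the action potential. Its alpha subunit forms the pore and inactivates within moments of opening, while beta subunits tune gating and help to anchor the channel to the cell surface and to adhesion molecules. In retinal ganglion cells (RGCs), whose axons form the optic nerve, these channels are packed at the axon initial segment and at nodes of Ranvier, and they also serve some amacrine cells, the inhibitory interneurons of the retina. Nalcn is related to the alpha subunits but passes a voltage-insensitive sodium leak that sets the resting potential and background excitability.

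Total counts ran from 9333244 to 23782520 per library. A single rRNA gene, CT010467.1, took 6.59%, 50.9% and 52.2% of the GFP libraries and 2.55%, 16.1% and 7.39% of the Ezh2-Y726D libraries, which left 5745352 and 4460732 other counts in GFP replicates 2 and 3 and at least 15280377 in each of the remaining libraries. Values are CPM, read counts relative to the size of the library, here after scaling by edgeR's TMM method, with GFP replicates 1 to 3 given before Ezh2-Y726D replicates 1 to 3. Ezh2 itself, which reads of the vector can reach, was at 22.7, 23.9 and 26.4 CPM with GFP and at 65.3, 65.6 and 65.2 CPM with Ezh2-Y726D. The label of RGCs was checked against marker genes. The summed level of 12 RGC markers was 501 to 513 CPM with GFP and 483 to 520 CPM with Ezh2-Y726D, against 5466 to 6161 CPM for 7 rod markers, 6410 to 6702 CPM for 6 Müller glia markers and 1557 to 2472 CPM for the amacrine markers. None of the RGC markers was at 0 in all libraries of a group, but the libraries held RNA of several retinal cell types. In such bulk samples, fewer cells of a type and less RNA per cell cannot be told apart.

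The alpha subunits resemble each other in sequence, which matters for how reads are counted. Of all 50-base words in a gene's transcripts, 4.03% of those of Scn1a, 5.76% of those of Scn2a, 6.49% of those of Scn3a and 4.16% of those of Scn9a also stood in another gene, mostly another alpha subunit of chromosome 2. The share was 0.037% for Scn8a, 1.01% for Scn2b and 0.297% for Nalcn, and no word of Scn3b or Scn4b stood elsewhere. Counts of the chromosome 2 genes are uncertain for these words, as the counting of reads with several targets is not given in the sources used here.

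The members sat in clusters. On chromosome 2 (GENCODE vM21, GRCm38), Scn3a (65457118 to 65567627, minus strand) lay 53.1 kb from Scn2a (65620771 to 65767447, plus strand). Scn1a (66270778 to 66440840, minus strand) followed after 503.3 kb, and Scn9a (66480080 to 66634962, minus strand) lay a further 39.2 kb on. On chromosome 9, Scn2b (45117782 to 45130070, plus strand) lay 8.3 kb from Scn4b (45138395 to 45154152, plus strand), with Scn3b at 40269217 to 40291618 on the plus strand. Scn8a was alone on chromosome 15 (100869858 to 101045938, plus strand) and Nalcn on chromosome 14 (123276634 to 123627144, minus strand). Exons of Scn9a overlapped the antisense gene Gm13629 over 1.41% of their length, and whether counting used the strand is not given.

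The comparison asked how these genes differed between injured, CD90.2-sorted cells given catalytically dead Ezh2 and those given GFP. Of the 9 members, 7 were higher with Ezh2-Y726D and 0 were lower (adjusted P under 0.05, edgeR, quasi-likelihood F test, Benjamini-Hochberg adjusted over 18138 genes). Over all genes tested, 13.9% were called higher and 13.6% lower. The 7 were Scn1a, Scn2a, Scn3a, Scn8a, Scn2b, Scn3b and Nalcn, and in each the libraries of the groups did not overlap, which held in that direction for 19.7% and in either direction for 38.6% of all genes. Also at an unadjusted P under 0.05, and with DESeq2, 0 members were lower. The median log2 fold change of the members was 0.39, against 0.00 over all genes, of which the middle 50% lay between -0.15 and 0.15. All 9 passed the filter on low counts. Beyond the 1.5-fold threshold the study used for differential expression, 1 member was called, Scn1a, while 2.52% of all genes were higher, 5.5% lower and 8.02% either past both thresholds.

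**Figure D1:**
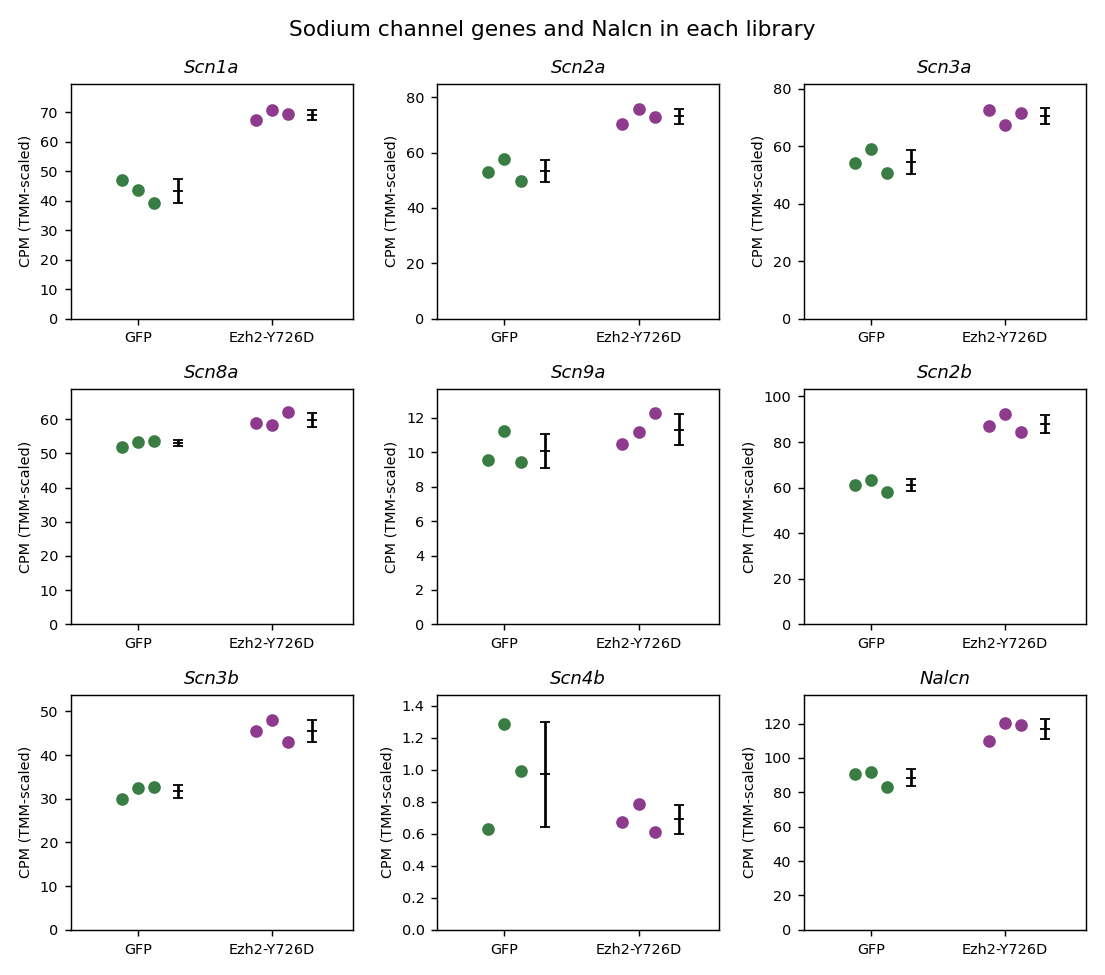
Level of each gene in each library, in TMM-scaled CPM from 0 on the vertical axis, with GFP in green, Ezh2-Y726D in purple, and the mean and SD of 3 libraries as a bar beside the points. The groups are apart for every gene but Scn9a and Scn4b.

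Scn1a encodes Nav1.1, the channel of fast-spiking inhibitory neurons and of many RGCs. It was at 47.2, 43.5 and 39.3 CPM with GFP and at 67.3, 70.7 and 69.3 CPM with Ezh2-Y726D. The lowest Ezh2-Y726D library stood above the highest GFP library, and the Ezh2-Y726D libraries were the closer together. The mean rose from 43.3 ± 3.94 to 69.1 ± 1.71 CPM (SD, n = 3), a log2 fold change of 0.64 (SE 0.057, 95% interval 0.52 to 0.75, adjusted P = 9.17e-10, edgeR), or 1.55-fold. On all 6 libraries this was the largest rise among the members, and it stood at percentile 96.7 of the log2 fold changes of all genes. It fell just under 1.5-fold, but was still called, at 0.57 with the exonic length trend removed. Without GFP replicates 2 and 3 it was also under 1.5-fold, at 0.55, and Scn3b stood above it at 0.61. In that fit the lone GFP library is assumed to vary like the Ezh2-Y726D libraries.

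Scn2a encodes Nav1.2, which prevails along unmyelinated axons and in immature initial segments. It was at 53.0, 57.7 and 49.8 CPM with GFP and at 70.3, 75.8 and 72.9 CPM with Ezh2-Y726D, again with a gap between the groups. The log2 fold change was 0.45 (SE 0.054, adjusted P = 1.74e-07, edgeR). Scn3a encodes Nav1.3, an alpha subunit of the developing nervous system that damaged peripheral sensory neurons express again. It was at 54.3, 59.1 and 50.8 CPM with GFP and at 72.5, 67.2 and 71.5 CPM with Ezh2-Y726D. The rise of Scn3a, 0.36 on the log2 scale (SE 0.054, adjusted P = 5.05e-06, edgeR), was close to that of its neighbour Scn2a. In both genes replicate 2 was the highest of the GFP libraries and replicate 3 the lowest, and no library of one group reached the other group.

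Scn8a encodes Nav1.6, the main channel of mature initial segments and nodes. It was at 51.9, 53.4 and 53.7 CPM with GFP and at 58.9, 58.4 and 62.0 CPM with Ezh2-Y726D, the narrowest gap among the members that were called. The log2 fold change of Scn8a was 0.18 (SE 0.052, 95% interval 0.08 to 0.29, adjusted P = 0.00834, edgeR), with an interval that did not reach that of Scn1a, Scn2a, Scn2b or Scn3b. Its call was lost without GFP replicate 1 (adjusted P = 0.0854), without Ezh2-Y726D replicate 3 (adjusted P = 0.0664) and when the trend with exonic length was removed from each library, where its log2 fold change was 0.09 (adjusted P = 0.219). At 15766 exonic bases, Scn8a was the longest of the members.

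Scn9a encodes Nav1.7, best known from peripheral pain and olfactory sensory neurons. It was at 9.58, 11.2 and 9.45 CPM with GFP and at 10.5, 11.2 and 12.3 CPM with Ezh2-Y726D, so the groups overlapped. The log2 fold change of Scn9a was 0.19 (SE 0.10, adjusted P = 0.182, edgeR), with a 95% interval from -0.02 to 0.40 that also holds the estimate of Scn8a. It was 0.12 without GFP replicate 1 and 0.12 without Ezh2-Y726D replicate 3, and was not called in either. From 57 counts in GFP replicate 3 to 362 in Ezh2-Y726D replicate 3, Scn9a was measured with less precision than the other alpha subunits.

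The beta subunits parted by level. Scn2b, a disulfide-linked subunit that raises the surface density of channels, was at 61.1, 63.5 and 58.2 CPM with GFP and at 87.2, 92.1 and 84.4 CPM with Ezh2-Y726D. Scn3b, a noncovalently bound subunit, was at 29.9, 32.5 and 32.7 CPM with GFP and at 45.6, 48.0 and 43.1 CPM with Ezh2-Y726D. Neither showed any overlap between groups. The log2 fold change was 0.52 for Scn2b (SE 0.050, 95% interval 0.42 to 0.63, adjusted P = 2.85e-09) and 0.55 for Scn3b (SE 0.063, 95% interval 0.42 to 0.68, adjusted P = 8.05e-08), both from edgeR. These stood at percentiles 95.0 and 95.5 of all genes.

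Scn4b, the beta subunit known for the resurgent sodium current, was rare in these cells. It was at 0.631, 1.29 and 0.995 CPM with GFP and at 0.677, 0.784 and 0.610 CPM with Ezh2-Y726D, from 6 counts in GFP replicate 3 to 18 counts in the richest libraries. The groups overlapped, and at this depth no difference was detectable. Its log2 fold change was -0.28 (SE 0.35, 95% interval -1.0 to 0.44, adjusted P = 0.628, edgeR), an interval wide enough to hold the estimates of Scn3a, Scn8a, Scn9a and Nalcn. Single libraries moved the value. It was -0.76 without GFP replicate 1, -0.05 without GFP replicate 2 and 0.11 without GFP replicates 2 and 3. With library totals in place of TMM it was also 0.11, where the median over all genes was 0.49. In none of these was Scn4b called.

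Nalcn had the most counts of the members. It was at 90.5, 92.1 and 83.1 CPM with GFP and at 110, 121 and 119 CPM with Ezh2-Y726D, with no overlap. The log2 fold change of Nalcn was 0.39 (SE 0.047, 95% interval 0.29 to 0.48, adjusted P = 2.25e-07, edgeR), and the mean moved from 88.6 ± 4.80 to 117 ± 5.79 CPM (SD, n = 3).

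The genes that build the leak channel with Nalcn were read from a list of 4. Of the 3 that were found and tested, 3 were higher, against 13.9% of all genes, with a median log2 fold change of 0.39. Unc79, a large scaffold of the complex, was at 73.2, 77.4 and 65.5 CPM with GFP and at 93.0, 98.1 and 94.6 CPM with Ezh2-Y726D (log2 fold change 0.39, adjusted P = 4.65e-07, edgeR). Unc80, which bridges Unc79 and the pore, was at 197, 207 and 200.0 CPM with GFP and at 244, 245 and 251 CPM with Ezh2-Y726D (log2 fold change 0.30, adjusted P = 7.26e-07, edgeR). Nalf1, listed in the table under the older symbol Fam155a and needed for the channel to reach the surface, was at 44.9, 49.4 and 45.9 CPM with GFP and at 61.3, 60.7 and 60.5 CPM with Ezh2-Y726D (log2 fold change 0.39, adjusted P = 1.34e-06, edgeR). Pore and partners of the leak channel therefore had log2 fold changes between 0.30 and 0.39.

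Levels of different genes were compared per length, as CPM per kilobase of exon. Scn2b led with 13.1 ± 0.565 with GFP and 18.9 ± 0.838 with Ezh2-Y726D (SD, n = 3). Nalcn (6.02 with GFP, 7.93 with Ezh2-Y726D) and Scn3b (5.80 and 8.34) came next and overlapped each other in both groups. Scn3a, Scn2a and Scn1a followed with GFP means of 4.39, 4.20 and 3.89 CPM per kilobase, and neighbours in this order overlapped. With Ezh2-Y726D, Scn1a stood at 6.20 CPM per kilobase, above every library of Scn2a (mean 5.73) and Scn3a (mean 5.65), which still overlapped each other. Its rank among the members thus went from 6 to 4. Scn8a was lower (3.36 and 3.79 CPM per kilobase), near the median of all tested genes of 3.73. Scn9a (0.790 and 0.886) and Scn4b (0.195 and 0.139 CPM per kilobase) were far below, and neither overlapped the gene above it.

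**Figure D2:**
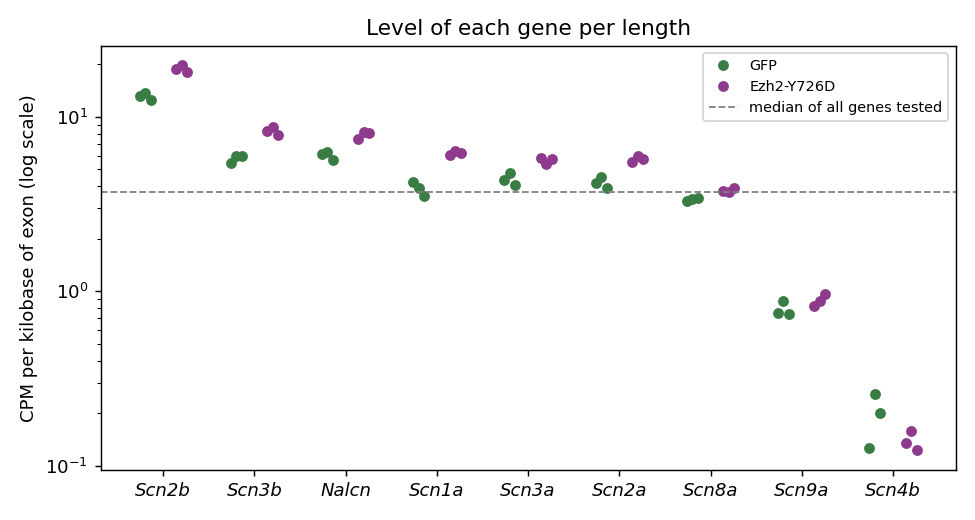
Level of each gene per kilobase of exon in each library, on a log scale, with GFP in green and Ezh2-Y726D in purple. The dashed line at 3.73 CPM per kilobase is the median of all genes tested, and Scn9a and Scn4b lie well under it.

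The summed level of the 5 alpha subunits was 16.8, 17.4 and 15.7 CPM per kilobase with GFP and 21.9, 22.3 and 22.6 with Ezh2-Y726D. Within this sum the make-up differed. Scn1a held 25.2%, 22.4% and 22.5% of it with GFP and 27.5%, 28.5% and 27.5% with Ezh2-Y726D, while Scn8a held 19.6%, 19.4% and 21.8% and then 17.0%, 16.6% and 17.4%. The share of Scn1a was thus higher and that of Scn8a lower in each Ezh2-Y726D library than in any GFP library. Scn2a, with mean shares of 25.2% and 25.8%, and Scn3a, with 26.4% and 25.4%, overlapped between groups. Scn9a held 4.46% to 5.04% with GFP and 3.74% to 4.26% with Ezh2-Y726D, again without overlap. Of the 3 beta subunits, Scn2b held 68.6% and 69.0% of the summed beta level and Scn3b 30.4% and 30.5%. Scn4b held 0.677% to 1.305% with GFP and 0.468% to 0.548% with Ezh2-Y726D, without overlap but from at most 18 counts per library.

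**Figure D3:**
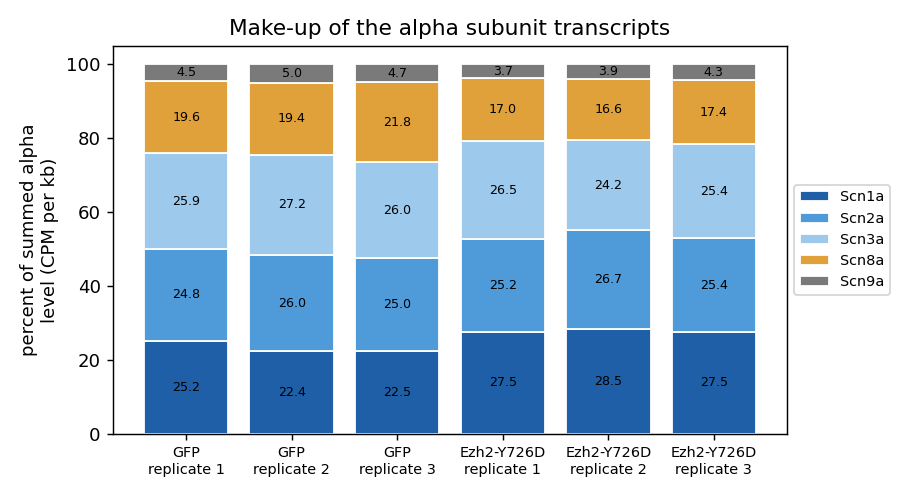
Share of each alpha subunit in the summed alpha level, in percent of CPM per kilobase, for each library. The Scn1a part is 22.4% to 25.2% with GFP and 27.5% to 28.5% with Ezh2-Y726D, and the Scn8a part is 19.4% to 21.8% and 16.6% to 17.4%.

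Ratios between members do not depend on how libraries are scaled, and 7 pairs were compared. The log2 ratio of Scn1a to Scn2a, from CPM per kilobase, was 0.02, -0.22 and -0.15 with GFP and 0.13, 0.09 and 0.12 with Ezh2-Y726D, a difference of 0.23. That of Scn8a to Scn2a was -0.34, -0.42 and -0.20 with GFP and -0.56, -0.68 and -0.54 with Ezh2-Y726D, a difference of -0.28. In both pairs the groups did not overlap, and the 2-sided exact permutation test gave P = 0.1, the smallest that 3 libraries against 3 allow, and 0.175 after Benjamini-Hochberg adjustment over the pairs. The ratios of Scn9a to Scn2a (difference -0.28) and of Scn4b to Scn2b (difference -0.97) gave the same P values in the same exact test. The ratio of Scn3b to Scn2b differed by 0.00 on the log2 scale (exact permutation P = 0.9), with SDs of 0.10 and 0.019, that of Scn3a to Scn2a by -0.08 (exact P = 0.4) and that of Nalcn to Scn2a by -0.05 (exact P = 0.2), and in these pairs the groups overlapped. Single libraries moved these small differences. That of Scn3a to Scn2a was -0.02 without Ezh2-Y726D replicate 2 and -0.13 without Ezh2-Y726D replicate 1. That of Nalcn to Scn2a was -0.03 without GFP replicate 1 and -0.08 without GFP replicate 2. That of Scn3b to Scn2b ran from -0.05 to 0.05 over the libraries left out.

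Of the other sodium channel genes read here, 2 were tested and 0 were called in either direction (edgeR), with a median log2 fold change of 0.11. Scn7a, which codes for a sodium-sensing channel of glia and lies 38.5 kb from Scn9a, was at 64.4, 57.4 and 59.5 CPM with GFP and at 64.3, 67.7 and 68.9 CPM with Ezh2-Y726D. Its groups overlapped, and its log2 fold change of 0.13 passed an unadjusted P under 0.05 but not the adjusted threshold (adjusted P = 0.0798, edgeR). The muscle gene Scn4a was not called either (0.10, adjusted P = 0.726, edgeR). Scn11a, with 1 to 3 counts per library, was not tested.

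Of 9 partner genes, whose products bind, regulate, traffic or turn over sodium channels or, for Scnm1, act in the splicing of Scn8a, 7 were higher and 0 lower (edgeR), with a median log2 fold change of 0.27. The shares over all genes were 13.9% higher and 13.6% lower. Fgf14, an intracellular FGF that sits on the tail of the alpha subunit at the initial segment, was at 25.9, 28.0 and 24.05 CPM with GFP and at 43.7, 43.4 and 43.2 CPM with Ezh2-Y726D. Its log2 fold change of 0.74 (SE 0.062, adjusted P = 2.52e-10, edgeR) was above the estimate of every member. Its relatives Fgf13 (0.37), Fgf12 (0.32) and Fgf11 (0.27) also rose, as did the calmodulin genes Calm2 (0.24) and Calm3 (0.27) and the ubiquitin ligase Nedd4l (0.24). Scnm1 (0.00) and Pacs2 (-0.06) were not called.

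Of 12 scaffold and adhesion genes of the initial segment and node, where the channels are held, 10 were higher and 0 lower (edgeR), with a median log2 fold change of 0.28. Ank3, which encodes the ankyrin-G that anchors the alpha subunits, was at 280, 292 and 286 CPM with GFP and at 346, 355 and 365 CPM with Ezh2-Y726D (log2 fold change 0.32, adjusted P = 3.11e-07, edgeR). Its spectrin partner Sptbn4 (0.41), the microtubule organizer Trim46 (0.42) and the adhesion genes Cntn2 (0.52), Cntnap1 (0.43), Cntnap2 (0.24) and L1cam (0.24) rose as well. The matrix genes Bcan (0.69) and Tnr (0.22) and the adhesion gene Nfasc (0.15) were also called, but libraries of Bcan and of Nfasc overlapped between groups. Nrcam (0.09) and Cntn1 (-0.04) were not called. Against 13.9% of all genes called higher and 13.6% lower, 20 of the 26 related genes tested were higher and 0 lower. None was lower at an unadjusted P under 0.05 or with DESeq2, by which 19 were higher, but 2 were lower at an unadjusted P under 0.05 when the exonic length trend was removed. Past 1.5-fold as well, 2 of them were called higher, Fgf14 and Bcan, against 2.52% of all genes.

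**Figure D4:**
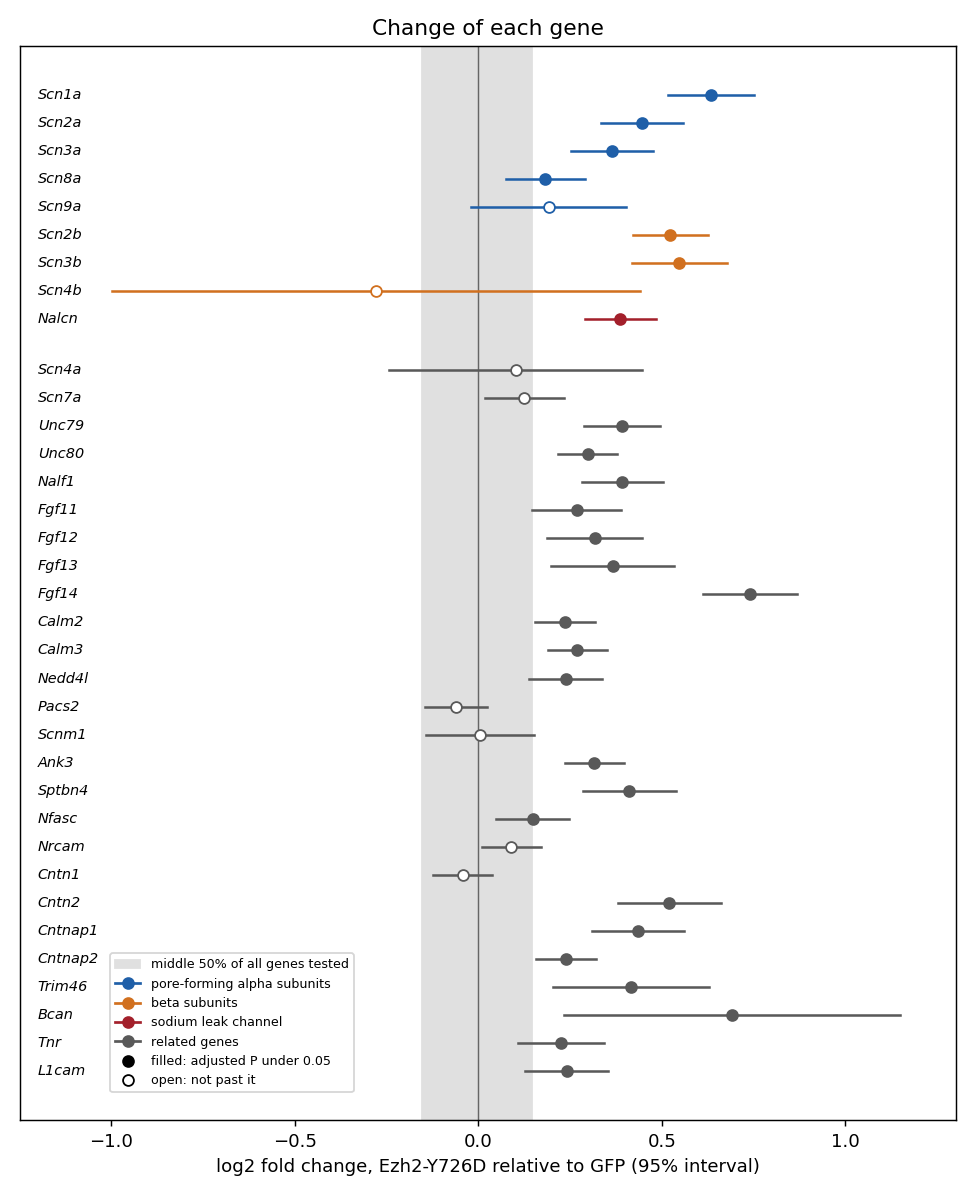
Log2 fold change of each gene, Ezh2-Y726D relative to GFP, with its 95% interval from edgeR, filled where the adjusted P is under 0.05. The grey band holds the middle 50% of all genes (-0.15 to 0.15), and the members run from -0.28 for Scn4b to 0.64 for Scn1a.

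Markers of retinal cell types were read beside these genes. The counts of markers called stand against 13.9% of all genes called higher and 13.6% lower, and the smaller counts are not far from these shares. The amacrine markers summed to 1557 to 1685 CPM with GFP and 2389 to 2472 CPM with Ezh2-Y726D, with 8 of 8 tested higher and a median log2 fold change of 0.58. The RGC markers summed to 501 to 513 and 483 to 520 CPM, with a median log2 fold change of -0.07. Of these 12, 3 were higher (Pou4f1 at 0.41, Ebf1 at 0.29 and Thy1, which encodes CD90, at 0.13) and 1 lower, Isl1 at -0.58. The 8 not called ran from -0.43 for Pou4f2, with Pou4f3 at -0.40, to 0.03 for Slc17a6. The members summed to 398, 414 and 378 CPM with GFP and to 523, 545 and 535 CPM with Ezh2-Y726D. Per unit of the RGC sum they went from 0.786 ± 0.0282 to 1.08 ± 0.0301, and per unit of the amacrine sum from 0.242 ± 0.00566 to 0.219 ± 0.00624 (SD, n = 3), in each case without overlap and in opposite directions. The summed levels of markers of microglia and macrophages (1086 to 1206 CPM with GFP, 518 to 607 with Ezh2-Y726D), cones (397 to 419 and 260 to 275), T cells (93.8 to 97.8 and 54.6 to 61.5), pericytes (184 to 195 and 146 to 159), oligodendrocytes (34.2 to 38.4 and 30.8 to 32.5) and bipolar cells (990 to 1002 and 810 to 830) were below those of GFP in every Ezh2-Y726D library. Called lower were 6 of 8 microglia and macrophage markers, with P2ry12 called higher (0.33), and 6 of 7 bipolar markers, with Prkca called higher (0.34). Of the cone and T cell markers 6 of 6 each were lower, of the pericyte markers 3 of 4, and of the oligodendrocyte markers 1 of 3. The rod sum was above that of GFP (5466 to 5631 and 5967 to 6161), with 2 of 7 markers higher and 1 lower, and the Müller glia sums overlapped. The sums of endothelial markers (950 to 1010 and 894 to 959), of which 2 of 5 were lower, and of horizontal cell markers (15.1 to 17.7 and 16.3 to 17.2), of which 3 were tested and not called (edgeR, also at an unadjusted P under 0.05), overlapped too. Most of the endothelial sum was Kdr and Flt1, with GFP means of 763 and 200 CPM. Cldn5, Pecam1 and Cdh5 were at 4.14, 8.24 and 3.02 CPM. No marker list had a gene at 0 in all libraries of a group. The part of these cell types in the values of the sodium channel genes was not tested.

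**Figure D5:**
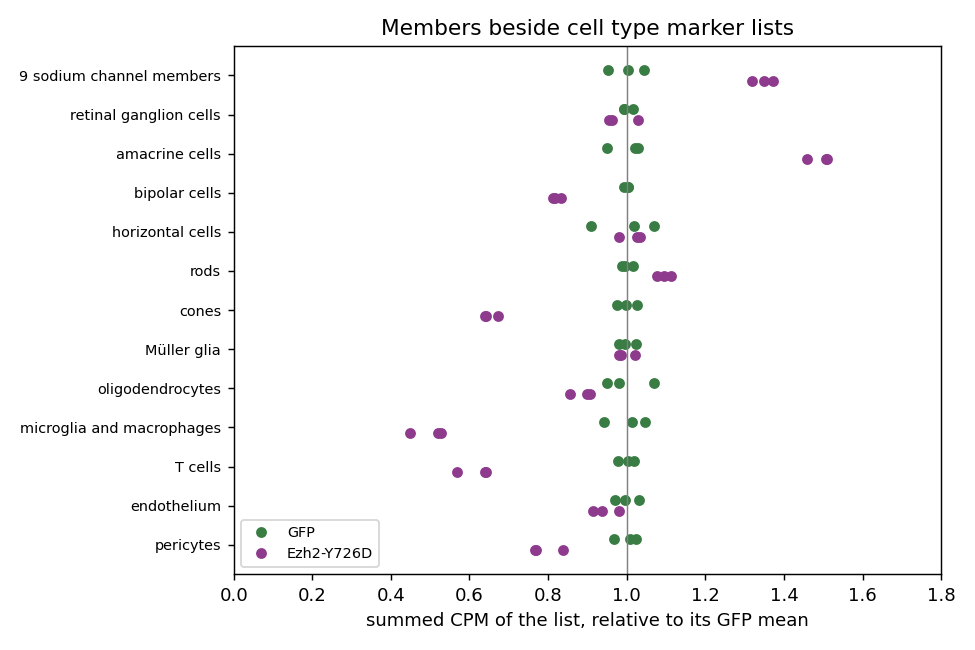
Summed CPM of the 9 members and of each marker list in each library, divided by the list's GFP mean, with GFP in green and Ezh2-Y726D in purple. The members and the amacrine list lie above 1 with Ezh2-Y726D, the RGC list lies around 1, and the microglia and macrophage list lies lowest.

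Among the 12251 genes with a mean of at least 5 CPM, the 5 whose levels over the 6 libraries were most like those of Scn2b, the member with the highest level per kilobase, by Pearson's r on log2(CPM + 1), were Plekha6, Ptpro, Calm3, Npnt and Vps41, with r from 0.998 to 1.00. Npnt, a matrix protein gene, was at 19.4, 20.1 and 17.6 CPM with GFP and at 33.1, 34.6 and 32.1 CPM with Ezh2-Y726D. Ptpro, a receptor tyrosine phosphatase gene, was at 48.4, 50.4 and 47.1 CPM and then at 66.1, 70.3 and 64.2 CPM. In each, as in Scn2b, replicate 2 was the highest of its group and replicate 3 the lowest. The libraries share their scaling and the group difference, and r is a description here.

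The promoters of the members differed in CpG content. Of the 9, 7 had an entry in the RefSeq table of GRCm38.p6, which holds 250 bases before to 50 after a transcript's start. The Scn2b and Scn4b promoters are shown because these neighbours differed most in level within a family, and those of Scn1a and Scn8a because they are the called alpha subunits with the largest and the smallest rise. Each run is read 5′ to 3′ on the gene's strand, with every CpG in capitals.
Scn2b, chr9:45117626-45117925, plus strand: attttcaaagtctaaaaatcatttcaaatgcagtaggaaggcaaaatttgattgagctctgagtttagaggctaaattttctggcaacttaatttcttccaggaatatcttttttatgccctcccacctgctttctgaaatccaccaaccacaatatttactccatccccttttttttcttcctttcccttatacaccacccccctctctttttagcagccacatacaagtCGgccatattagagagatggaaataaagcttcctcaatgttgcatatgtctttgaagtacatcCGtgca
Scn4b, chr9:45138374-45138673, plus strand: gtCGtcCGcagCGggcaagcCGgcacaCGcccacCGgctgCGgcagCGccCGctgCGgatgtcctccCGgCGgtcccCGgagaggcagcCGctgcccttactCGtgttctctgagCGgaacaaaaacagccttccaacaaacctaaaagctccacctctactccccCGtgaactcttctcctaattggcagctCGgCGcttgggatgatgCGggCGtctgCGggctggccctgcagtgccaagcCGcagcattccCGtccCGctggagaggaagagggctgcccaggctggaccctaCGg
Scn1a, chr2:66440788-66441087, minus strand: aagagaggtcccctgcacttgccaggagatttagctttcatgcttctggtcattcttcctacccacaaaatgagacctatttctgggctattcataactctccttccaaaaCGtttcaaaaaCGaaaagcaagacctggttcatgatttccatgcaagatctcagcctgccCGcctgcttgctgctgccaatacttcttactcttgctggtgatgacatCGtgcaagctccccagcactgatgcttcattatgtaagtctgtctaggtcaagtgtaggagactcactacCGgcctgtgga
Scn8a, chr15:100870395-100870694, plus strand: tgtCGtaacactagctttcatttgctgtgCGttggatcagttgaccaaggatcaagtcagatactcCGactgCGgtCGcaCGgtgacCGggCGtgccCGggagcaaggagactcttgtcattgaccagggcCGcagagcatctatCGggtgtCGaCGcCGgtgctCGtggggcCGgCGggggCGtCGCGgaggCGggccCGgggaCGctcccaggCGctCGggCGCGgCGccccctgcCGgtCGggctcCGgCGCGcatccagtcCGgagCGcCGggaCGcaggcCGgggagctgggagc

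Scn2b held 2 CpGs and Scn4b 26, while Scn1a held 5 and this entry of Scn8a 38, against a median of 7 over 32851 promoters. Nalcn held 3, Scn9a 9, the entries of Scn2a 3 and 9, and a second entry of Scn8a 12. The genes with the larger rises for which an entry was found (Scn1a, Scn2a, Scn2b and Nalcn) had at most 9 CpGs, but so did Scn9a, which was not called. Scn3a and Scn3b, which also rose, had no entry. The tested genes with an entry were split by their entry with the most CpGs, so their counts run above the median of 7 over single entries. The share called higher was 14.5% in the tertile with the fewest CpGs (0 to 15), 13.5% in the middle tertile (16 to 25) and 16.6% in the tertile with the most (26 to 67). The share called lower was 20.9%, 12.7% and 12% in the same order. Both strands were searched for 3 words. TTCAGCACC, a core of the element bound by the repressor REST, was in none of the entries and in 0.371% of all promoters. GGACAG, another part of that element, was in the second Scn8a entry and in 22.2% of all promoters. TATAAA was in the second Scn2a entry and in 13.6% of all promoters. These words do not overlap each other in sequence, and a missing match says only that the letters are not in these windows.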

How the data were processed

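RNA-Seq libraries were made from sorted retinal cells with a stranded total RNA kit. The authors deposited raw read counts per gene, without normalization, and their processing notes name STAR 2.7.0d and GRCm38. The counting tool, its annotation and its strand setting are not given in the sources used here. Counts were scaled by TMM and tested with edgeR 4.0.16 (R 4.3.3, quasi-likelihood test, filterByExpr at 10 counts and a total of 15, adjustment over 18138 genes). Called means an adjusted P under 0.05. Coordinates and exonic lengths are from GENCODE vM21, in which 32342 of 32371 identifiers were found, and promoter sequences from RefSeq. TMM factors ran from 0.647 to 1.31, and the common biological coefficient of variation was 0.0442. Every pair of libraries differed by more than counting noise.

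The members, gene lists, marker lists and tests were chosen with earlier results of these data known. The named genes are the members, every gene of the lists of related genes, Ezh2, and the 5 genes most like Scn2b. CT010467.1, P2ry12, Prkca and the RGC and endothelial markers named singly were picked with their values known. Alternatives were RLE factors, library totals, scaling to the RGC markers, other filters, GC content and length trends (lowess, span 0.3), the replicate block, DESeq2 1.42.0 and leaving out libraries. Scn10a, Nalf2 and the oligodendrocyte marker Mog were not matched in the table. The procedure was tested on simulated data. Some further items are not reported here.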

Additional observations from a re-analysis of the deposited data

How the results depend on the processing

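Scaling by library totals put the median over all genes at 0.49 on the log2 scale and that of the members at 0.89, and no member or related gene was called: 0 members and 0 related genes were higher, although 6 and 14 were at an unadjusted P under 0.05, and over all genes 46 were higher and 19 lower (edgeR). Library totals without CT010467.1 shifted the median by -0.02 and left 7 members higher. Scaling to the RGC markers also gave 7. Requiring a fold change over 1.5 left 1 member, 2 related genes, and 457 higher and 998 lower genes overall. Scn4b changed sign to 0.11 with library totals, a scaling that shifts all genes and leaves Scn4b below their median, and to 0.11 without GFP replicates 2 and 3, an alternative chosen after seeing the data, in which 7 members were higher if the lone GFP library is assumed to vary like the Ezh2-Y726D libraries, so that this count is no sign of stability. The cause of the latter was not tested. Leaving out 1 library at a time gave 6 to 7 members and 18 to 20 related genes higher and 0 members lower. DESeq2 on all libraries gave 7 and 19 higher and 0 lower. Scn4b ranged from -0.76 to -0.05 and Scn9a from 0.12 to 0.25 when 1 library was left out. Removing the trend with exonic length gave 6 members, with a median of 0.30, and 2 related genes lower at an unadjusted P under 0.05. Same-numbered libraries correlated at 0.30, 0.12 and 0.093, each best with its own number, which is a hint and not a design. With the replicate block 7 members and 21 related genes were higher, and over all genes 2675 higher and 2547 lower. Depth limits Scn4b, with as few as 6 counts.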
